A study of Danio rerio with 8 samples.

Results

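Microglia are the resident macrophages of the brain, and 39 zebrafish gene names that mark microglia and other macrophages were followed here through a study of interleukin-4 (IL4) in the adult brain. The names were matched to the genes of the deposited count table by zebrafish gene name without regard to case, and a name that was absent was looked up without its paralogue letter. They matched 44 of the 31388 genes, because 1 name, mfap4, is carried by 6 neighbouring genes. The members were divided into 18 names (23 genes) of cell identity, 12 genes of activation and 9 lysosomal genes. The fish were 6 months old (6 mpf) and carried the Tg(her4.1:EGFP) transgene, in which the her4.1 promoter drives green fluorescent protein in radial glia, so that all 4 groups share this reporter. Brains received an injection of PBS (phosphate-buffered saline) or of IL4 peptide and were taken 24 hours post injection (hpi). Cells were dissociated and sorted by flow cytometry into a GFP-negative and a GFP-positive fraction. The groups PBS GFP-negative, IL4 GFP-negative, PBS GFP-positive and IL4 GFP-positive hold 2 libraries each, and whether a pair of libraries comes from different fish or pools is not in the labels, so that the spread behind the p-values may be technical.

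Microglia derive from macrophages that enter the brain during development, and they depend on the transcription factors PU.1 (spi1a and spi1b) and Irf8 and on signals through the CSF1 receptor. They survey the tissue through purinergic receptors, engulf dying cells and myelin through scavenger and phosphatidylserine receptors, and tag material with complement C1q. What they engulf is broken down in lysosomes by cathepsins and glycosidases, and the phagocyte oxidase produces superoxide against it. IL4 is known in mammals as a cytokine of alternative macrophage activation.

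Total counts ran from 19242851 to 26582271 per library. Levels are given as CPM, the count of a gene divided by the TMM-scaled size of its library, and the order within a group is replicate 1 and then replicate 2. The GFP-positive libraries were rich in her4.1, at 1377 and 1316 CPM after PBS and 988 and 964 CPM after IL4, against 8.92 to 10.5 CPM in GFP-negative libraries. No defining gene of microglia was at 0 in GFP-negative libraries, and the label of the list was borne out there by csf1ra, csf1rb, p2ry12, havcr1, slc7a7, mpeg1.1, spi1a, spi1b and the 3 C1q genes, the lowest of which was p2ry12 at 13.5 and 16.1 CPM after PBS. The gene irf8 was close to p2ry12, at 12.1 and 14.3 CPM. The exceptions were the scarce p2ry13 at 1.19 and 0.648 CPM and mpeg1.2 at 0.269 and 0.324 CPM. The 44 members took 1.01% and 1.01% of counts in PBS GFP-negative libraries and 0.310% and 0.305% in IL4 GFP-negative libraries. In GFP-positive libraries they took 0.111% and 0.114% after PBS and 0.0662% and 0.0662% after IL4.

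After IL4, microglia and macrophage genes fell in the GFP-negative fraction across all 3 classes. Of 44 members, 43 passed the filter on low counts, and 38 of them were lower at an adjusted p under 0.05 and 0 were higher (edgeR quasi-likelihood test). None was higher at an unadjusted p under 0.05 either, and DESeq2 and limma-voom each called 0 higher. Among all 20508 genes tested, 24.5% were called, 15.4% as lower and 9.04% as higher. The median log2 change of the members was -1.39, against -0.02 for all genes. In 41 of the 43, both IL4 libraries lay below both PBS libraries, a pattern that 34% of all genes showed. The 5 members that did not pass were p2ry13, mpeg1.2, ptprc, tyrobp and aif1l. These are bulk samples of sorted cells, in which fewer cells of a type and less RNA per cell cannot be told apart.

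**Figure D1:**
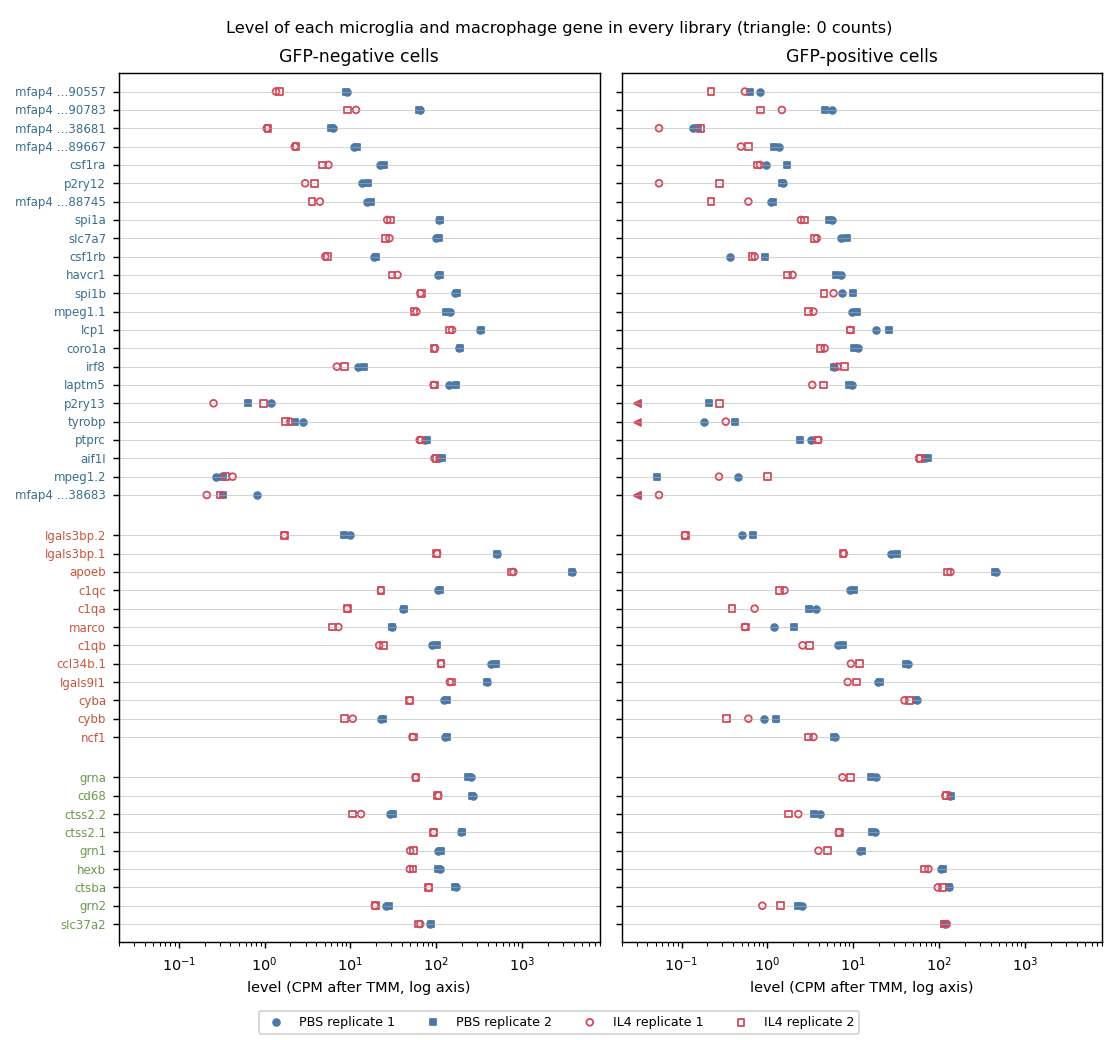
Level of each member gene in each of the 8 libraries, in CPM on a log axis, with GFP-negative cells on the left and GFP-positive cells on the right, PBS in filled blue and IL4 in open red, and circles and squares for replicates 1 and 2. Identity genes are at the top, activation genes in the middle and lysosomal genes at the bottom, and in GFP-negative cells the red symbols lie left of the blue ones for most genes, as for apoeb at 792 and 754 CPM against 3813 and 3857.

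The 3 transcription factors of the identity class were all lower in GFP-negative cells after IL4. The PU.1 gene spi1a (chromosome 25, 35048603 to 35067306, GRCz10) was at 109 and 111 CPM after PBS and at 26.8 and 29.3 CPM after IL4. The groups did not overlap, and spi1a fell by 1.96 ± 0.10 on the log2 scale (SE, n = 2 against 2, as throughout; adjusted p = 5.01e-12), a 3.90-fold difference. Its paralogue spi1b went from 166 and 174 CPM to 65.1 and 66.7 CPM, a log2 change of -1.37 ± 0.09 (adjusted p = 4.18e-10). The exons of spi1b overlap a gene on the opposite strand by 528 bases, and the strand setting of the counting is not given in the sources used here. The gene irf8, which directs macrophage over neutrophil fate, was at 12.1 and 14.3 CPM after PBS and 6.95 and 8.62 CPM after IL4. Its log2 change was -0.77 ± 0.19 (adjusted p = 0.00488), the smallest of the 3 factors. That call rested on single libraries, since the adjusted p was 0.0803 without PBS replicate 2 and 0.107 without IL4 replicate 1.

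Of the receptors, transporters and other surface or secreted lineage genes of the identity class, 11 of 13 tested genes were lower, with a median log2 change of -2.04. Both values count each tested mfap4 gene separately. The CSF1 receptor, which keeps microglia alive, is encoded by a pair of paralogues. The first, csf1ra (chromosome 14, 3170816 to 3202049), went from 21.8 and 24.9 CPM to 5.55 and 4.75 CPM (log2 change -2.18 ± 0.21, adjusted p = 1.04e-07). The second, csf1rb, went from 18.9 and 19.9 CPM to 5.09 and 5.36 CPM (log2 change -1.89 ± 0.22, adjusted p = 1.87e-06). Neither paralogue overlapped between PBS and IL4. Per kilobase of gene length, the mean level after PBS was 6.63 CPM for csf1ra and 2.88 CPM for csf1rb. The exons of csf1rb share 149 bases with a gene on the same strand.

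The purinergic receptor gene p2ry12, by which microglia sense ATP and ADP, went from 13.5 and 16.1 CPM to 2.97 and 3.82 CPM (log2 change -2.12 ± 0.25, adjusted p = 2.09e-06). Its neighbour p2ry13, which lies 14422 bases away on chromosome 15, was scarce and its groups overlapped, at 1.19 and 0.648 CPM after PBS and 0.254 and 0.967 CPM after IL4. The log2 change of p2ry13 was -0.60 ± 0.76 (adjusted p = 0.638), and it was 0.07 without IL4 replicate 1. The phosphatidylserine receptor gene havcr1, of the TIM family that recognises dying cells, went from 104 and 111 CPM to 35.4 and 30.6 CPM (log2 change -1.70 ± 0.10, adjusted p = 1.10e-10). The amino acid transporter gene slc7a7, required for microglia to form in the zebrafish brain, went from 99.2 and 107 CPM to 28.5 and 25.9 CPM (log2 change -1.92 ± 0.10, adjusted p = 1.76e-11). For p2ry12, havcr1 and slc7a7 the IL4 libraries all lay below the PBS libraries.

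The perforin family gene mpeg1.1, the usual source of macrophage reporters in zebrafish, went from 145 and 131 CPM to 58.6 and 55.03 CPM. Its groups did not overlap and its log2 change was -1.28 ± 0.09 (adjusted p = 7.66e-10), smaller than those of csf1ra, slc7a7 or spi1a by more than their standard errors. The paralogue mpeg1.2 had 15 counts over both PBS libraries and 18 over both IL4 libraries, and its log2 change was 0.38 ± 0.81 (adjusted p = 0.794). At that depth no change of mpeg1.2 passed, and its direction was not resolved.

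The mfap4 genes encode secreted proteins with a fibrinogen-like domain and serve as macrophage markers in zebrafish. The 6 genes with this name lie within 58290828 to 58339626 on chromosome 1, and 5 of them share exon sequence with a neighbour, so their split is uncertain while their sum is less so. Summed over the 6 genes, the level was 106 and 107 CPM after PBS and 20.9 and 18.1 CPM after IL4 in GFP-negative cells, with no overlap. Each of the 5 that could be tested was lower, with log2 changes from -2.65 ± 0.31 to -2.04 ± 0.24. The highest per kilobase, ENSDARG00000090783, went from 63.9 and 62.1 CPM to 11.6 and 9.28 CPM (log2 change -2.59 ± 0.15, adjusted p = 6.24e-11). The one not tested, ENSDARG00000038683, had 29 counts after PBS and 12 after IL4.

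Genes classed under leukocyte signalling and the cytoskeleton were lower in 3 of 6 cases, with a median log2 change of -0.58. Other blood cells share several of them with microglia, but the class, which includes tyrobp and aif1l, is not purely pan-leukocyte. The pan-leukocyte phosphatase gene ptprc (CD45) was at 74.4 and 78.8 CPM after PBS and 64.2 and 66.6 CPM after IL4. The libraries did not overlap, but the log2 change of ptprc, -0.23 ± 0.10, did not pass in this fit (adjusted p = 0.0920) and passed when only the compared groups were fitted (adjusted p = 0.0212) and with limma-voom (adjusted p = 0.0166). The actin-binding genes coro1a and lcp1 fell, coro1a from 185 and 189 to 96.9 and 94.4 CPM (log2 change -0.96 ± 0.07) and lcp1 from 323 and 329 to 153 and 144 CPM (-1.14 ± 0.08). The lysosomal membrane gene of leukocytes laptm5 went from 141 and 168 CPM to 93.2 and 95.1 CPM (log2 change -0.72 ± 0.09, adjusted p = 2.64e-06).

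The adaptor gene tyrobp (DAP12), which relays signals of TREM2 in mammals, was scarce, at 2.81 and 2.27 CPM after PBS and 1.99 and 1.76 CPM after IL4 (log2 change -0.44 ± 0.47, adjusted p = 0.569). The gene aif1l, a relative of the mammalian microglial marker AIF1 (Iba1), was at 106 and 116 CPM after PBS and 95.5 and 99.5 CPM after IL4. Its log2 change in GFP-negative cells was -0.19 ± 0.07 with an adjusted p of 0.0573, which was 0.0285 with limma-voom, 0.0395 with the compared groups alone and 0.0456 without PBS replicate 1. In the GFP-positive fraction aif1l was at 68.4 and 74.5 CPM after PBS, a 1.56-fold lower level (log2 difference -0.64 ± 0.07, adjusted p = 1.20e-07).

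All 12 activation genes fell in GFP-negative cells, with a median log2 change of -2.12. The 3 C1q genes, whose products form the recognition molecule of the classical complement pathway, are neighbours on chromosome 21 (22675702 to 22688375), separated by gaps of 2526 and 1575 bases. After PBS, c1qa was at 41.0 and 42.5 CPM, and after IL4 it was at 9.16 and 9.28 CPM. The second, c1qb, went from 89.4 and 102 CPM to 21.6 and 24.4 CPM, and c1qc from 105 and 111 CPM to 22.6 and 22.6 CPM. The 3 changes were within one another's standard errors or close to them, at -2.18 ± 0.16 for c1qa, -2.06 ± 0.11 for c1qb and -2.25 ± 0.10 for c1qc on the log2 scale (adjusted p at most 1.46e-09).

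The 3 subunits of the phagocyte oxidase also fell together but by less. The catalytic subunit gene cybb went from 22.7 and 23.8 CPM to 10.6 and 8.48 CPM (log2 change -1.28 ± 0.19, adjusted p = 2.81e-05). Its membrane partner cyba went from 122 and 135 CPM to 49.3 and 48.6 CPM (log2 change -1.39 ± 0.08, adjusted p = 5.96e-11). The cytosolic organizer ncf1 went from 125 and 132 CPM to 52.7 and 54.0 CPM (log2 change -1.27 ± 0.08, adjusted p = 3.84e-10). None of the 3 genes had overlapping groups, and their changes differed by less than the standard error of cybb.

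The scavenging, lipid and secreted genes fell in 6 of 6 cases, with a median log2 change of -2.25. The apolipoprotein gene apoeb (chromosome 16, 24045712 to 24048429), a carrier of cholesterol and a marker of zebrafish microglia, was at 3813 and 3857 CPM after PBS and 792 and 754 CPM after IL4. This was a 4.96-fold difference (log2 change -2.31 ± 0.04, adjusted p = 2.97e-18). It took 44.5% and 44.1% of the summed CPM of the members after PBS and 30.2% and 29.2% after IL4. Per kilobase of gene length apoeb was also the highest member after PBS, at 1810 CPM per kilobase, followed by the chemokine gene ccl34b.1 at 751.

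The chemokine gene ccl34b.1, a microglial marker in zebrafish, went from 438 and 490 CPM to 113 and 114 CPM (log2 change -2.03 ± 0.07, adjusted p = 1.51e-14). The galectin-3-binding protein gene lgals3bp.1, a secreted scavenger-domain protein, went from 507 and 509 CPM to 103 and 101 CPM (log2 change -2.32 ± 0.06, adjusted p = 5.63e-16). Its neighbour lgals3bp.2, 4019 bases away on chromosome 3, was at 4.60 CPM per kilobase against 255 for lgals3bp.1 after PBS, and it went from 9.77 and 8.43 CPM to 1.70 and 1.71 CPM (log2 change -2.41 ± 0.29). The exons of lgals3bp.2 share 685 bases with lgals3bp.3 on the same strand, so that its counts are uncertain. The scavenger receptor gene marco went from 30.2 and 30.6 CPM to 7.25 and 6.15 CPM (log2 change -2.18 ± 0.19, adjusted p = 2.24e-08). The galectin gene lgals9l1 fell less, from 390 and 386 CPM to 144 and 149 CPM (log2 change -1.41 ± 0.06, adjusted p = 1.03e-12), and it shares 261 exon bases with lgals9l3.

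All 9 lysosomal genes fell in GFP-negative cells too, with a median log2 change of -1.07. The largest change was that of grna, a progranulin gene whose product is a lysosomal glycoprotein, which went from 253 and 234 CPM to 57.2 and 58.2 CPM (log2 change -2.08 ± 0.08, adjusted p = 8.21e-14). The glycoprotein gene cd68, a pan-macrophage lysosomal marker, went from 266 and 260 CPM to 106 and 104 CPM (log2 change -1.33 ± 0.05, adjusted p = 2.67e-13). The cathepsin S genes ctss2.1 and ctss2.2 are neighbours on chromosome 16. They fell to similar degrees, ctss2.1 from 197 and 201 to 93.1 and 92.8 CPM (log2 change -1.10 ± 0.07) and ctss2.2 from 28.5 and 31.2 to 13.3 and 10.6 CPM (-1.32 ± 0.16). The cathepsin B gene ctsba went from 168 and 166 CPM to 81.8 and 81.9 CPM (log2 change -1.03 ± 0.07, adjusted p = 2.50e-10).

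The beta-hexosaminidase gene hexb, a stable microglial marker in mammals, went from 112 and 104 CPM to 49.2 and 53.4 CPM (log2 change -1.07 ± 0.08, adjusted p = 1.14e-09). The short granulin genes grn1 and grn2, neighbours on chromosome 19, had log2 changes of -1.07 ± 0.09 and -0.48 ± 0.15. The call of grn2 rested on every library of the comparison: at 26.1 and 28.3 CPM after PBS and 19.3 and 19.8 CPM after IL4, its adjusted p was 0.0257, and it lay between 0.0811 and 0.195 when any 1 of these 4 was left out. The sugar-phosphate exchanger gene slc37a2, needed in zebrafish microglia to shrink their phagosomes, changed least, from 84.0 and 87.4 CPM to 65.0 and 62.0 CPM (log2 change -0.43 ± 0.07, adjusted p = 4.20e-05). Exons of ctsba, ctss2.2, grna, grn1, grn2 and hexb overlap genes on the opposite strand, by 6 bases for hexb and by 172 to 333 for the others.

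Set side by side, identity genes had a median log2 change of -1.53, activation genes of -2.12 and lysosomal genes of -1.07 in GFP-negative cells. At least 2-fold falls were found for 14 of 22 identity genes, 12 of 12 activation genes and 7 of 9 lysosomal genes. The share of all genes with such a fall was not counted, so these counts are a description only. The identity values count each tested mfap4 gene separately, although these genes carry the same name. Their log2 changes, from -2.65 to -2.04, all lie below the identity median. Each of them also counts among the identity genes that fell at least 2-fold. Ranked without them, the middle identity gene was lcp1 at -1.14, close to the lysosomal median of -1.07. The gap between the identity and lysosomal medians thus rested mostly on this name. Within the identity class the range ran from -2.65 to 0.38, which covers both other classes, so the classes overlapped gene by gene. The differences between the classes were not tested.

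The same contrast was read within each library as the log2 ratio of the summed CPM of activation and lysosomal genes to that of identity genes. In GFP-negative cells the ratio was 2.09 and 2.05 after PBS and 1.29 and 1.29 after IL4, a difference of -0.78. In GFP-positive cells it was 2.83 and 2.70 after PBS and 2.56 and 2.54 after IL4, a difference of -0.21. The largest gene in the sum of activation and lysosomal genes was apoeb. Without apoeb the difference was -0.42 in the GFP-negative fraction and turned to 0.18 in the GFP-positive one. In GFP-positive cells the identity sum was 166 and 181 CPM after PBS and 109 and 112 CPM after IL4. The gene aif1l, which changed little, held 68.4 and 74.5 CPM of it after PBS and 58.4 and 61.3 CPM after IL4. The ratio without aif1l was not computed, so its direction in GFP-positive cells is uncertain. Activation genes alone over identity genes gave 1.81 and 1.78 after PBS and 0.80 and 0.79 after IL4 in GFP-negative cells. Lysosomal genes alone over identity genes gave -0.39 and -0.47 after PBS and -0.51 and -0.48 after IL4 in the same cells, a shift close to the distance between replicates.

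**Figure D2:**
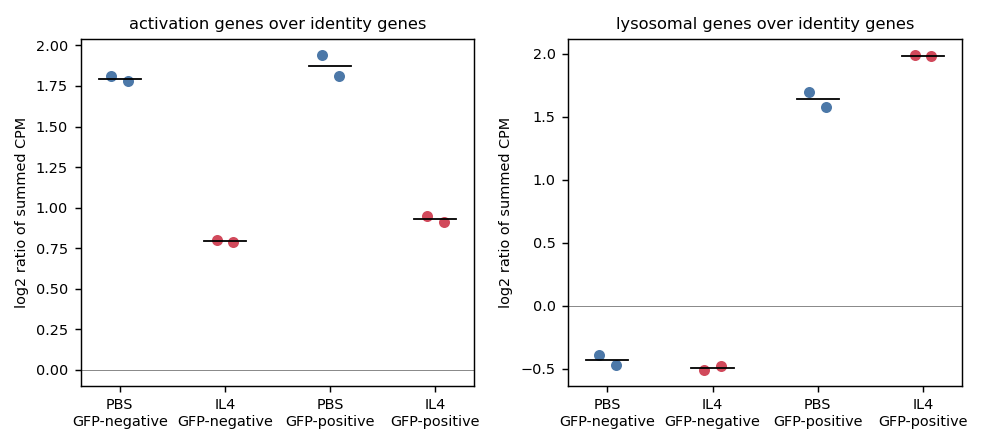
Log2 ratio of the summed CPM of activation genes (left) and of lysosomal genes (right) to that of identity genes, with 1 point per library and a line at the mean of the 2 libraries of a group. Activation over identity was lower after IL4 in both fractions, at 0.79 to 0.95 against 1.78 to 1.94, while lysosomal over identity was higher after IL4 in GFP-positive cells, at 1.99 and 1.98 against 1.70 and 1.58. After PBS the lysosomal sum in GFP-positive cells was 539 and 543 CPM. It was mostly cd68, ctsba, hexb and slc37a2 (means of 136, 130, 107 and 115 CPM), which are among the members that differed least between the fractions. The identity sum there was 166 and 181 CPM, of which aif1l, another such member, held 68.4 and 74.5 CPM.

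In GFP-positive cells the members were far scarcer, and they were mostly lower after IL4 as well. Of 43 tested, 33 were lower and 0 higher, where 28.7% of all genes were called, 14.8% as lower and 13.9% as higher. DESeq2 and limma-voom called 0 higher too, and at an unadjusted p under 0.05 edgeR had 1 higher, ptprc, at 3.25 and 2.41 CPM after PBS and 3.93 and 3.81 CPM after IL4 (adjusted p = 0.0865, and 0.0401 with library totals). The median log2 change was -1.08 against 0.01 for all genes. In 35 members both IL4 libraries lay below both PBS libraries, against 29.7% of all genes. By class, 13 of 22 identity genes, 12 of 12 activation genes and 8 of 9 lysosomal genes were lower, with medians of -1.0, -1.67 and -0.89. The identity values again count each tested mfap4 gene separately. Ranked without them, the middle identity gene was tyrobp at -0.82 ± 0.90, so the order of the identity and lysosomal medians depended on this name. The calls of 24 of the 33 held under every alternative tried, and those of aif1l, cybb, lgals3bp.2, marco, cd68, ctss2.2, grn2 and the mfap4 genes ENSDARG00000088745 and ENSDARG00000089667 did not.

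Activation genes had the largest median change in this fraction too. In GFP-positive cells c1qc went from 9.14 and 10.1 CPM to 1.58 and 1.38 CPM (log2 change -2.69 ± 0.18, adjusted p = 1.17e-09), and c1qa from 3.66 and 3.03 CPM to 0.710 and 0.387 CPM (-2.60 ± 0.31). The third C1q gene, c1qb, fell less, from 6.58 and 7.53 CPM to 2.57 and 3.09 CPM (-1.31 ± 0.18, adjusted p = 1.86e-05). All 3 C1q genes were low there, and their groups did not overlap. The level of apoeb went from 466 and 454 CPM to 136 and 125 CPM (log2 change -1.82 ± 0.04, adjusted p = 1.90e-16) and that of ccl34b.1 from 43.7 and 41.5 CPM to 9.40 and 11.8 CPM (-2.01 ± 0.09). Of the oxidase genes, ncf1 fell by 0.89 ± 0.16 and cyba by 0.36 ± 0.08 on the log2 scale. The log2 change of cybb was -1.19 ± 0.42 (adjusted p = 0.0384), with 44 counts after PBS and 17 after IL4. Its adjusted p was 0.147 without PBS GFP-positive replicate 2, 0.215 without IL4 GFP-positive replicate 2, and 0.0512 and 0.0521 without PBS GFP-negative replicate 1 or 2. For marco the log2 change was -1.53 ± 0.38 (adjusted p = 0.00430), and the adjusted p was 0.0508 without PBS GFP-positive replicate 2.

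Among identity genes in GFP-positive cells, mpeg1.1 went from 9.55 and 11.1 CPM to 3.44 and 3.04 CPM (log2 change -1.67 ± 0.15, adjusted p = 8.99e-08) and havcr1 from 7.27 and 6.27 CPM to 1.97 and 1.71 CPM (-1.88 ± 0.19). The largest change was that of p2ry12, from 1.51 and 1.46 CPM to 0.0546 and 0.276 CPM, which rests on 61 counts against 6 (log2 change -3.13 ± 0.53, adjusted p = 0.000156). The factors spi1a and spi1b fell by 1.08 ± 0.17 and 0.71 ± 0.15 on the log2 scale, and the actin-binding genes coro1a and lcp1 by 1.28 ± 0.12 and 1.24 ± 0.13. The adaptor tyrobp had 12 counts after PBS and 6 after IL4, csf1rb 26 and 25, and p2ry13 4 and 5, and none of the 3 passed. The 9 identity genes that did not pass also included csf1ra (-0.70 ± 0.37, adjusted p = 0.170) and irf8 (0.27 ± 0.21, adjusted p = 0.368). With 246 counts after PBS and 263 after IL4, irf8 was not among the scarcest. The log2 change of csf1rb, 0.11 ± 0.45, ran from -0.51 to 0.84 when single libraries were left out. The mfap4 genes summed to 9.05 and 7.84 CPM after PBS and 3.22 and 2.04 CPM after IL4. Of these, ENSDARG00000088745 changed by -1.43 ± 0.45 (log2), by -2.37 without IL4 GFP-positive replicate 1 and by -0.95 (adjusted p = 0.179) without replicate 2, and the call of ENSDARG00000089667 was lost without PBS replicate 1 (adjusted p = 0.0789) or IL4 replicate 1 (adjusted p = 0.101).

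The lysosomal genes with the highest levels in GFP-positive cells changed least there. The level of cd68 was 134 and 138 CPM after PBS and 118 and 121 CPM after IL4, without overlap (log2 change -0.18 ± 0.05, adjusted p = 0.0155). With library totals in place of TMM, the log2 change of cd68 was -0.11 (adjusted p = 0.139). The gene slc37a2 was at 116 and 114 CPM after PBS and 123 and 117 CPM after IL4 (log2 change 0.06 ± 0.06, adjusted p = 0.555), and ctsba and hexb fell by 0.32 ± 0.07 and 0.58 ± 0.08 on the log2 scale. By contrast grn1, at 11.9 and 12.6 CPM after PBS and 3.93 and 4.97 CPM after IL4, fell by 1.46 ± 0.14, and ctss2.1 by 1.32 ± 0.10. The log2 change of ctss2.2 was -0.89 ± 0.24, with an adjusted p of 0.0674 without IL4 GFP-positive replicate 2, and that of grn2 was -1.06 ± 0.28, with an adjusted p of 0.0789 without IL4 GFP-positive replicate 1.

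**Figure D3:**
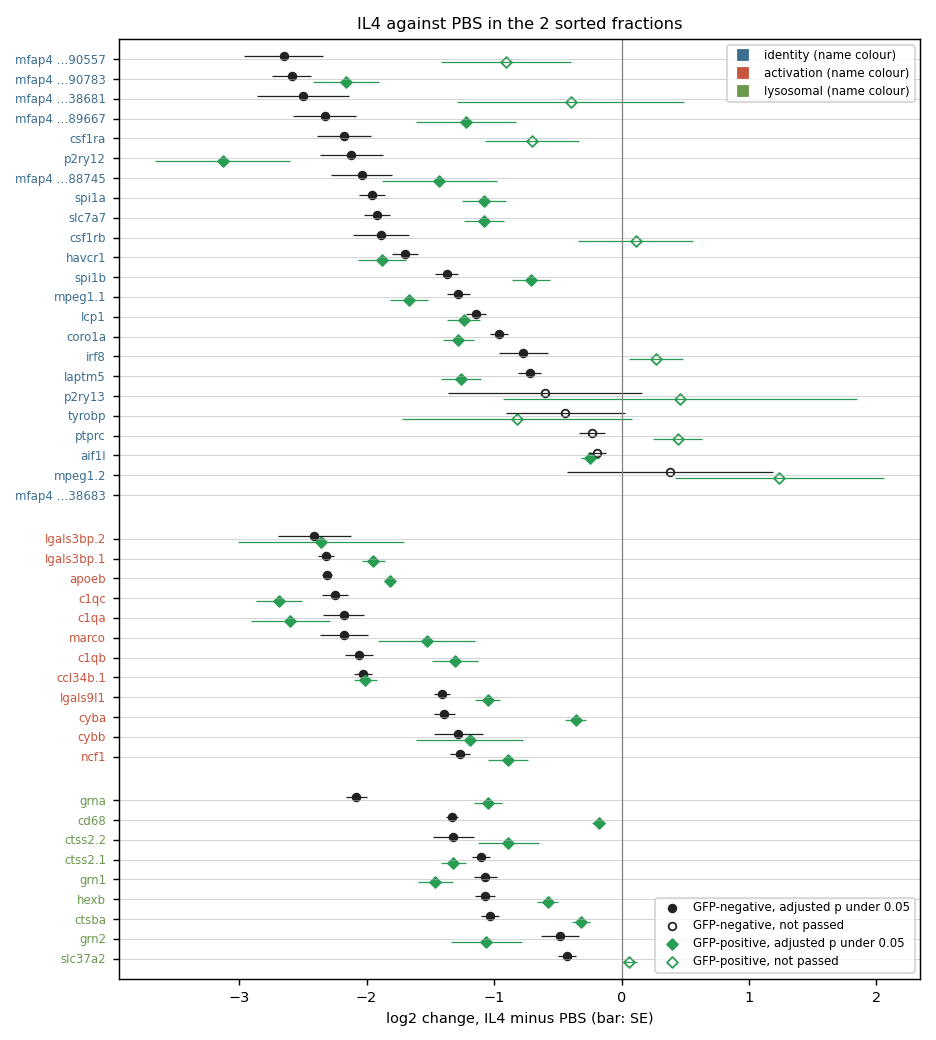
Log2 change of each member after IL4 against PBS, with its SE as a bar, in GFP-negative cells (black circles) and GFP-positive cells (green diamonds); filled symbols passed at an adjusted p under 0.05, and names are coloured by class. All 12 activation genes lie left of 0 in both fractions, while cd68, ctsba, hexb, slc37a2 and cyba lie nearer to 0 in GFP-positive cells.

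The IL4 change differed between the fractions for 18 of 43 members by the interaction test, in 17 of them by a smaller fall (or none) in GFP-positive cells. Among all genes the interaction was called for 18.7%, as positive for 11.5% and as negative for 7.26%. The call held under every alternative tried for 8 members, slc7a7, cyba, apoeb, cd68, ctsba, grna, hexb and slc37a2. The interaction of cd68 was 1.14 ± 0.08 on the log2 scale (adjusted p = 2.16e-09), that of cyba 1.04 ± 0.12 (adjusted p = 2.64e-06) and that of grna 1.03 ± 0.14 (adjusted p = 2.40e-05). Those of ctsba (0.71 ± 0.09), hexb (0.49 ± 0.11), slc37a2 (0.49 ± 0.09), apoeb (0.49 ± 0.06) and slc7a7 (0.84 ± 0.20) were smaller. Of the 8 genes, 5 are lysosomal, and cd68, ctsba, hexb, slc37a2 and cyba are among the members whose levels in the fractions were closest.

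The other 10 interaction calls were lost under at least 1 alternative. They were spi1a (0.89 ± 0.21), spi1b (0.66 ± 0.18), irf8 (1.03 ± 0.28), csf1ra (1.48 ± 0.44), csf1rb (2.00 ± 0.51), ptprc (0.67 ± 0.21), c1qb (0.74 ± 0.22), lgals3bp.1 (0.37 ± 0.12) and lgals9l1 (0.36 ± 0.12), with laptm5 as the 1 negative interaction (-0.55 ± 0.18). Without PBS GFP-positive replicate 1 the interaction was 0.38 for spi1b and 0.18 for lgals3bp.1, and neither passed; spi1b was at 0.39 without IL4 GFP-positive replicate 1 and did not pass either. Without PBS GFP-positive replicate 2 it was 0.40 for ptprc, which did not pass, and without IL4 GFP-positive replicate 2 it was 0.11 for lgals9l1, which did not pass, and -0.85 for laptm5, which did. The call of spi1a was lost without IL4 GFP-positive replicate 2 (adjusted p = 0.0591) and that of csf1rb without PBS or IL4 GFP-positive replicate 1 (adjusted p of 0.0610 and 0.0546). The call of irf8 was lost when IL4 GFP-positive replicate 2, PBS GFP-negative replicate 2 or IL4 GFP-negative replicate 1 was left out. That of c1qb was lost without those 3 libraries or PBS GFP-positive replicate 1, and that of csf1ra without either IL4 GFP-positive library, PBS GFP-positive replicate 1 or replicate 2 of either GFP-negative group. The calls of ptprc, laptm5, lgals3bp.1 and lgals9l1 were lost without any 1 of 6, 5, 7 and 7 of the 8 libraries. Interactions of genes with few counts in GFP-positive cells, such as csf1rb with 26 and 25, carry wide errors.

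The sort itself set the members apart. After PBS, 40 of 43 members were lower in GFP-positive than in GFP-negative cells and 1 was higher, where 71.7% of all genes were called, 39.1% as lower and 32.6% as higher, with a median log2 difference of -3.64 for the members and -0.14 for all genes. After IL4, 36 were lower and 4 higher, where 66.6% of all genes were called, 34.3% as lower and 32.4% as higher, with a median of -3.43. Library totals in place of TMM shifted the median of all genes by -0.485 after PBS and -0.437 after IL4. After PBS, ptprc was lower by 4.75 ± 0.14 on the log2 scale (3.25 and 2.41 CPM in GFP-positive cells), cybb by 4.42 ± 0.25, ncf1 by 4.41 ± 0.11 and lgals9l1 by 4.27 ± 0.08.

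The differences between the fractions were smallest for 8 members. After PBS the log2 difference was -1.24 ± 0.08 for cyba, -1.14 ± 0.20 for irf8, -0.95 ± 0.05 for cd68, -0.64 ± 0.07 for aif1l, -0.37 ± 0.06 for ctsba, -0.01 ± 0.07 for hexb and 0.43 ± 0.06 for slc37a2. The eighth, the scarce mpeg1.2, was at -0.16 ± 0.87. Of these, cyba, irf8, cd68, aif1l and ctsba were called lower in GFP-positive cells and slc37a2 was called higher. The genes span all 3 classes, and 4 of the 8 are lysosomal. After IL4, cd68 was higher in GFP-positive cells (0.19 ± 0.06), as were ctsba (0.34 ± 0.07), hexb (0.48 ± 0.08) and slc37a2 (0.92 ± 0.07). With library totals these values were -0.25 for cd68, -0.10 for ctsba, 0.04 for hexb and 0.49 for slc37a2, so the order of the fractions for cd68 and ctsba depended on the scaling, and after PBS slc37a2 turned to -0.06 and hexb was lower in GFP-positive cells at -0.50 (adjusted p = 8.33e-06). The difference of cyba after IL4, -0.20 ± 0.08, had an adjusted p of 0.0415, and of 0.425 without IL4 GFP-positive replicate 1, 0.147 without IL4 GFP-negative replicate 1 and 0.102 without IL4 GFP-negative replicate 2. The call of p2ry13 after PBS (-3.15 ± 1.02) rests on 4 counts in GFP-positive cells and was lost without PBS GFP-positive replicate 1 (-2.03) or PBS GFP-negative replicate 1 (-2.64), and it was -7.34 without PBS GFP-positive replicate 2, which leaves 0 counts in that group. For tyrobp after IL4 the log2 difference of -3.47 ± 0.69 rests on 6 counts, all in replicate 1, and was -8.38 without that library, which leaves 0 counts in the group.

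**Figure D4:**
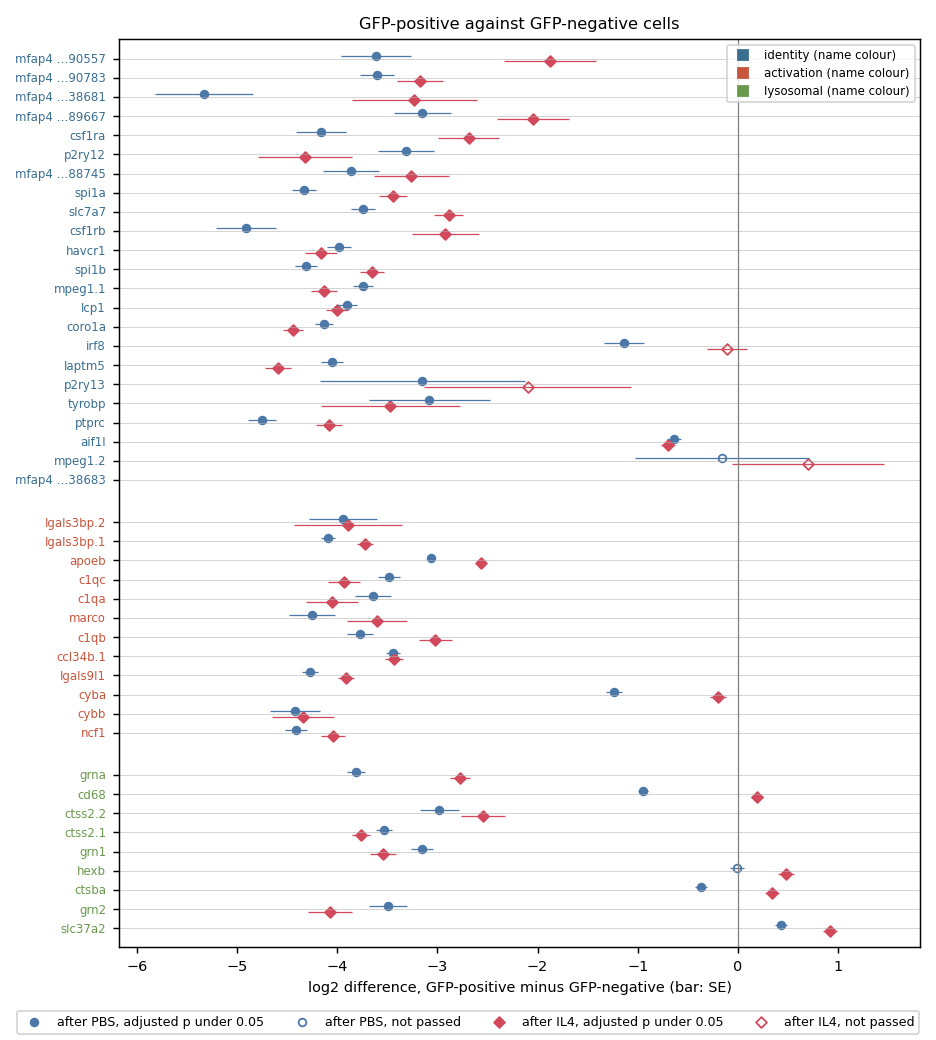
Log2 difference between GFP-positive and GFP-negative cells for each member, with its SE as a bar, after PBS (blue circles) and after IL4 (red diamonds); filled symbols passed at an adjusted p under 0.05, and names are coloured by class. Most members lie far to the left of 0, while irf8, aif1l, mpeg1.2, cyba, cd68, hexb, ctsba and slc37a2 lie nearest to 0 after PBS.

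Other genes of the same pathways were read from lists that hold none of the members. Among all genes, 15.4% were lower and 9.04% higher after IL4 in GFP-negative cells, and 14.8% and 13.9% in GFP-positive cells. Of 24 further microglia and macrophage genes tested in GFP-negative cells, 12 were lower after IL4 and 1 was higher, with a median log2 change of -0.63. In GFP-positive cells 6 of the 24 were lower and 1 was higher, with a median of -0.12, and the 1 higher gene, tlr2, had 27 counts after PBS and 70 after IL4 there. The higher one, tlr4ba, was at 1.44 CPM or less and lost its call without any 1 of the 4 GFP-negative libraries. The lower ones were led by ms4a17a.10, a membrane protein gene, at -2.29 ± 0.12 (81.8 and 87.8 CPM to 15.6 and 19.03 CPM), the chemerin receptor gene cmklr1 at -2.18 ± 0.08, the transporter gene slco2b1 at -1.90 ± 0.18 and the TIM family gene havcr2 at -1.87 ± 0.18. Of 28 further lysosomal genes, 19 were lower and 1 higher, with a median of -0.57. They were led by the cholesterol-binding npc2 gene ENSDARG00000096979 (-2.19 ± 0.39) and the cathepsin genes ctsk (-1.74 ± 0.18), ctsc (-1.73 ± 0.10) and ctsz (-1.66 ± 0.10). The further lysosomal genes had summed levels of 3334 and 3286 CPM in GFP-negative and 3174 and 3148 CPM in GFP-positive cells after PBS. Gene by gene after PBS, 15 of the 28 were lower in the GFP-positive than in the GFP-negative fraction, and 8 were higher. At least 2-fold lower were 12 of the 15, and the share of all genes at that cut was not counted. Among all genes 39.1% were lower and 32.6% higher in that comparison. Within the GFP-positive fraction 13 of the 28 were lower after IL4 and 1, tfe3a, was higher, with a median log2 change of -0.33; the tfe3a call was lost without any 1 of the 8 libraries, and the 13 became 8 without PBS GFP-positive replicate 1.

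Of 11 tested genes of alternative activation, the programme that IL4 is known to induce in mammalian macrophages, 4 were lower and 1 was higher in GFP-negative cells. Among all genes 15.4% were lower and 9.04% higher there, and DESeq2 called 1 of the 11 lower. The mannose receptor gene mrc1b went from 43.1 and 41.0 CPM to 9.45 and 9.85 CPM (log2 change -2.12 ± 0.18, adjusted p = 1.98e-08). Its paralogue mrc1a had a log2 change of -1.94 ± 0.42 (adjusted p = 0.00146), and its adjusted p was 0.0564 without IL4 replicate 1 and 0.428 with DESeq2. The changes of pparg (-1.08 ± 0.33) and tgfb1a (-0.56 ± 0.20) lost their calls when any 1 of the 4 GFP-negative libraries was left out. Both were also not called with DESeq2 (adjusted p of 0.584 and 0.0668), and tgfb1a lost its call under every alternative tried. The 1 higher gene, arg2, an arginase, was at 477 and 468 CPM after PBS and 530 and 518 CPM after IL4 (log2 change 0.15 ± 0.04, adjusted p = 0.0107), and its call was lost without IL4 replicate 1. In GFP-positive cells the median log2 change was 0.11. There 1 of the 11 was lower and 2 were higher, against 14.8% and 13.9% of all genes. The lower one was mrc1b (-1.49 ± 0.39, adjusted p = 0.00595). The higher ones, irf4b with 10 counts after PBS and 29 after IL4 and chia.1 with 0 and 8, were both not called with the compared groups alone or without either IL4 GFP-positive library, and 1 of them was not called with DESeq2 or without either PBS GFP-positive library. The call of mrc1b was lost with the compared groups alone and without IL4 GFP-positive replicate 2.

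The CSF1 receptor is bound by the products of csf1a, csf1b and il34. In GFP-negative cells 0 of these 3 genes passed in the edgeR fit, 1 (csf1a) had an unadjusted p under 0.05, 0 passed with DESeq2 and 1 with limma-voom. The level of il34 was 18.8 and 17.99 CPM after PBS and 21.0 and 19.5 CPM after IL4 (log2 change 0.14 ± 0.14). The log2 change of csf1a was -0.83 ± 0.36 (adjusted p = 0.115) and that of csf1b was -0.20 ± 0.53. In GFP-positive cells csf1a, named here after its values were seen, had 0 counts over both PBS libraries and 12 over both IL4 libraries. With a floor of 3 counts in place of the 0, csf1a was 4.50-fold higher after IL4. That value takes the 12 counts as exact, so it is not a lower bound. It was called higher in this fit (adjusted p = 0.00720) and was not called with the compared groups alone.

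Markers of other cells moved in the same GFP-negative libraries, where 15.4% of all genes were lower and 9.04% higher after IL4. Of 6 endothelial markers 6 were lower after IL4, with a median log2 change of -1.79 and a summed level of 146 and 136 CPM after PBS and 39.4 and 39.6 CPM after IL4. Among them pecam1a, a vascular adhesion gene, changed by -2.41 ± 0.17 and the receptor gene kdrl by -1.88 ± 0.17. Neutrophil markers summed to 97.0 and 98.6 CPM after PBS and 103 and 96.8 CPM after IL4, and T, B and NK cell markers to 51.3 and 56.3 CPM and to 76.4 and 78.8 CPM. Of 4 tested neutrophil genes 1 was higher (lyz, 0.83 ± 0.16) and 2 lower (csf3r, -2.40 ± 0.41, and mmp9, -0.48 ± 0.14). Among 10 tested lymphocyte genes 3 were higher, 1 was lower and 6 did not pass. Their log2 changes ran from -1.23 to 1.2, with ighm at 1.2 ± 0.17. The 3 higher lymphocyte calls became 1 without PBS replicate 2 or either IL4 library and 5 with limma-voom or the compared groups alone. The 2 lower neutrophil calls became 1 without either PBS library or IL4 replicate 2, and the 1 higher neutrophil call became 2 with RLE factors, library totals, limma-voom, the compared groups alone or without any 1 of the GFP-positive libraries. The neutrophil sums of the PBS and IL4 groups overlapped and the lymphocyte sums lay higher after IL4. Erythrocyte markers went from 31.7 and 38.0 CPM to 17.97 and 16.2 CPM, and 1 of 4 was called lower and 0 higher.

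Neuronal markers, 6 of 9 of them higher, summed to 4296 and 4264 CPM after PBS and 5913 and 5823 CPM after IL4 in GFP-negative cells. Oligodendrocyte markers summed there to 14730 and 14500 CPM and to 19250 and 19090 CPM, with 3 of 6 called higher and 1 lower. Radial glial markers summed to 2304 and 2330 CPM and to 2415 and 2413 CPM there, with 2 of 8 called higher and 3 lower. Among all genes 9.04% were higher and 15.4% lower in that comparison. In GFP-positive cells radial glial markers summed to 48460 and 47420 CPM after PBS and 36540 and 36710 CPM after IL4. Of these 8 markers 6 were lower and 0 higher there, against 14.8% and 13.9% of all genes. In the same cells, neuronal markers went from 675 and 650 CPM to 1032 and 1029 CPM and oligodendrocyte markers from 1916 and 1836 CPM to 1553 and 1543 CPM, so that both kinds of marker were measured in these libraries too. Of the marker lists, genes at 0 in both libraries of a GFP-positive group numbered 1 of 6 for neutrophils after PBS and after IL4, 1 of 11 for T, B and NK cells after IL4 and 1 of 4 for erythrocytes after IL4, and no endothelial marker was at 0 in any group. The part of cell composition in the changes of the members was not tested.

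**Figure D5:**
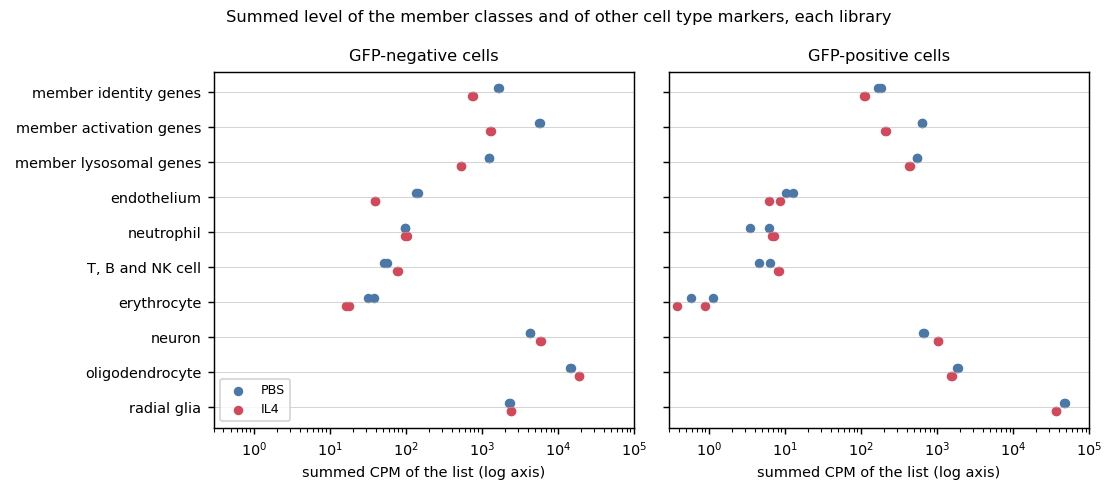
Summed CPM, on a log axis, of the 3 member classes and of marker lists of other cell types in each library, for GFP-negative cells (left) and GFP-positive cells (right), with PBS in blue and IL4 in red. In GFP-negative cells the sums of the member classes, endothelium and erythrocyte markers lie lower after IL4. The neutrophil sums lie at the same place, and the lymphocyte, neuron and oligodendrocyte sums lie higher. Genes within a list did not all follow its sum, as for oligodendrocyte markers, of which 3 of 6 were called higher and 1 lower.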

How the data were processed

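RNA was measured in 8 libraries of sorted zebrafish brain cells, per the labels as full-length complementary DNA made with SmartScribe and 75 bp single-end reads. The authors deposited raw read counts per gene, whole numbers without normalization, made with featureCounts on GRCz10 (danRer10) per the submitters' processing notes. The versions, the aligner, the strand setting and the handling of multiply aligned reads are not given in the sources used here. Other injections, another time and triplicates stand in the series' design text, and the labels were followed because their names match the columns. Of the columns of counts, 0 had no sample.

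Counts were fitted with edgeR 4.0.16 in R 4.3.3, with TMM factors, filterByExpr (minimum count 10, which kept 20508 and removed 10880 of 31388 genes), 1 mean per group fitted to the 8 libraries together (leaving 4 residual degrees of freedom) and a robust quasi-likelihood F test, with two-sided p-values, the Benjamini-Hochberg adjustment across every gene tested and a threshold of 0.05. The SE is the log2 change divided by the square root of F. The 5 comparisons were IL4 against PBS in each fraction, the interaction, and the sorted fractions (GFP-positive against GFP-negative) within PBS and within IL4. Alternatives were other scalings, no filter, DESeq2 1.42.0 with the TMM factors, limma-voom 3.58.1, the compared groups alone, the replicate number as a block, other class sums and leaving out each library. The fit was also run on simulated counts, with a small set of changed genes and the same spread setting for every gene. Many more genes were called in these data, so that run does not vouch for the p-values here.

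Of the 39 names, 33 matched by symbol, 2 by synonym (grn1 and grn2) and 4 without the paralogue suffix (spi1b, ctsba, mpeg1.1 and mpeg1.2, the last pair told apart by the neighbouring genes of RefSeq's GRCz12tu annotation). The members and all lists were chosen with earlier results of these data known. All members are named. Of other lists, at most 4 genes with the largest called changes in GFP-negative cells are named, plus markers of the fractions, and of the shorter lists some genes that did not pass or were chosen after their values were seen. The floor put in place of 0 counts allows for counting error in the PBS group only, and amplified reads are not independent molecules. No sequences are shown.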

Additional observations from a re-analysis of the deposited data

Results flagged for a closer look

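For 18 members the IL4 change differed between GFP-positive and GFP-negative cells by the interaction test (log2, GFP-positive minus GFP-negative), and these are given as values. Identity genes were csf1rb at 2.00, csf1ra at 1.48, irf8 at 1.03, spi1a at 0.89, slc7a7 at 0.84, ptprc at 0.67, spi1b at 0.66 and laptm5 at -0.55. Activation genes were cyba at 1.04, c1qb at 0.74, apoeb at 0.49, lgals3bp.1 at 0.37 and lgals9l1 at 0.36. Lysosomal genes were cd68 at 1.14, grna at 1.03, ctsba at 0.71, hexb at 0.49 and slc37a2 at 0.49. For irf8, ptprc and slc37a2, both IL4 libraries lay below both PBS libraries in GFP-negative cells and above them in GFP-positive cells. The share of all genes with this pattern was not counted, and 34% of all genes showed its GFP-negative part. Genes called in the interaction test are also more likely to move in opposite directions, so no result about the members is read from it. None of the 3 rises in GFP-positive cells passed in the main edgeR fit (adjusted p of 0.368, 0.0865 and 0.555). That of slc37a2 turned to a fall when some single libraries were left out. The interaction calls of irf8 and ptprc were lost under at least 1 alternative.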

How the results depend on the processing

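In GFP-negative cells 36 of the 38 lower calls among the members held under every alternative, and the count ran from 36 to 38 when single libraries were left out. In GFP-positive cells 24 of 33 held, with a range of 30 to 33. All genes higher in GFP-negative cells were 2914 with the compared groups alone and 984 to 2346 without single libraries. With library totals 1 member was higher after IL4 in GFP-positive cells, 0 members had a negative interaction, 0 (after PBS) and 1 (after IL4) were higher in GFP-positive than GFP-negative cells, and all genes higher there were 4231 and 4332. Member interactions were 11 positive and 0 negative with limma-voom, and 11 to 15 positive and 0 to 2 negative without single libraries. For all genes they were 1568 to 1934 positive and 947 to 1964 negative without single libraries. The ratio of activation and lysosomal to identity genes changed by -0.71 in GFP-negative cells with C1q genes and hexb as identity genes, and by -0.42 (GFP-negative) and 0.18 (GFP-positive) without apoeb. The causes were not tested.

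Directions turned mostly for changes near 0 or with few counts. Without single libraries the IL4 change ran from -1.83 to 0.07 for p2ry13 in GFP-negative cells, and in GFP-positive cells from -0.51 to 0.84 for csf1rb, -4.27 to 4.67 for p2ry13, -0.01 to 3.41 for mpeg1.2, -1.39 to 0.12 for mfap4 ENSDARG00000038681, -5.80 to 0.09 for tyrobp and -0.04 to 0.06 for slc37a2. Between the fractions it ran after PBS from -2.31 to 0.70 for mpeg1.2 and -0.06 to 0.11 for hexb, and after IL4 from -0.25 to 0.06 for irf8 and -0.49 to 1.36 for mpeg1.2. After PBS hexb was at 0.03 with RLE factors and 0.07 with the compared groups alone, and with library totals hexb was at -0.50 and slc37a2 at -0.06. After IL4 library totals gave -0.25 for cd68 and -0.10 for ctsba.

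No pairing by replicate number was seen, as deviations of same-numbered libraries correlated at -0.0106 to 0.00662 across genes. Whether same-numbered libraries share fish or pools is not in the labels. These correlations cannot settle it, since they weigh genes with few counts like all others. With the replicate block, 39 members were lower after IL4 in the GFP-negative fraction, where aif1l passed at an adjusted p of 0.0482 (edgeR), and 33 in the GFP-positive one, and 17 and 1 had a positive and a negative interaction. The block moved no count over the members or over all genes by over 1.5 times. Groups of 2 leave 4 residual degrees of freedom, and a fit without 1 library assumes that the lone library varies like the others. Depth limits p2ry13, mpeg1.2, tyrobp and the mfap4 genes in GFP-positive cells.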
